A study of Mus musculus with 2 samples.

Results

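Heat shock chaperones of the cytosol and the mitochondria were followed in 2 RNA-seq libraries of mouse E14.1 cells, known as an embryonic stem cell line. The set holds 48 genes, out of 25749 gene identifiers in the deposited values: the heat shock factors, the HSP70, HSP110, HSP90 and HSP40 families, small heat shock proteins, their cochaperones, and the chaperones and proteases of mitochondria. The genes were chosen by function, as a named list, at a time when differences between these same libraries were already known. Their values are therefore given as a description, with no test. All 48 symbols were found, and 46 reached 1 RPKM (reads scaled by exon length and library size) in at least 1 library. Hspa1a and Dnajb4 stayed under that minimum in both libraries, and Dnaja4 passed it through the WT library alone.

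One library came from cells with wild-type AHCY and one from cells with T136A AHCY, in which a threonine is replaced by alanine. AHCY is the enzyme that breaks down S-adenosylhomocysteine, the by-product of methylation reactions. The labels do not say how the T136A cells were made, whether they are a single clone, or how they were cultured. There was 1 library per genotype, so no spread between cultures could be measured, and "higher" and "lower" below compare these libraries only. Gene-level values carry no trace of a changed codon, so they do not check the labels.

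The implied totals were 17506153 reads for WT and 18396840 for T136A. All 8 markers of pluripotent stem cells were present, with summed levels of 4123 RPKM in WT and 3874 in T136A. Dppa5a (2182 and 1969 RPKM) made up most of that sum. Zfp42 (252 and 397 RPKM) and Tdgf1 (161 and 263 RPKM) were higher in T136A, while the other 6 were lower, among them Nanog (673 and 517 RPKM). Of 10 markers of fibroblast feeder cells, 6 had values, with summed levels of 14.3 and 26.2 RPKM. Vim (10.9 and 19.9 RPKM) and Thy1 (2.499 and 5.32 RPKM) made up most of that sum, while the defining collagen genes Col1a1 (0.470 and 0.530 RPKM) and Col1a2 (0.0368 and 0.0525 RPKM) were near 0 and Postn was at 0 in WT. Summed markers of endoderm stood at 2.54 and 4.95 RPKM, those of trophectoderm at 6.54 and 9.41, of mesoderm at 1.73 and 1.40 and of neuroectoderm at 9.27 and 3.74. The last sum was mostly Sox1 (7.77 and 1.55 RPKM), while Nes was at 1.18 and 1.91 RPKM. The part of such cells in the results below was not tested. In bulk RNA, fewer cells of a type and less RNA per cell cannot be told apart.

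Chaperones hold proteins in a state that can fold. HSP70 proteins bind short greasy stretches of a client and release them in a cycle of ATP hydrolysis, which J-domain (HSP40) proteins start and nucleotide exchange factors end. HSP90 then takes over selected clients, many of them kinases and transcription factors, with the help of its own cochaperones. When unfolded protein builds up, the transcription factor HSF1 is freed, forms trimers and binds heat shock elements, which are inverted repeats of GAA, in the promoters of these genes. Mitochondria have their own HSP70, the HSPD1 and HSPE1 folding chamber, and proteases that clear what fails to fold. Stem cells are known for high levels of several of these proteins without any heat shock.

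More of the chaperone genes were higher in the T136A library than lower. With 1 added to every RPKM, 7 of the 48 (Hspa8, Dnaja1, Hspa1b, Hspd1, Hsph1, Hspb1 and Dnajb1) had a T136A level at least 2 times that of WT, and 0 differed that much in the other direction. Among all 12320 genes that reached 1 RPKM in a library, 3.13% were at least 2-fold higher and 3.1% at least 2-fold lower. At 1.5-fold, 15 members were higher and 2 lower, against 10.4% and 11.3% of all genes. With scaling to the upper quartile, which moves the median of all genes from -0.03 to 0.10, the background became 15.3% higher and 7.82% lower at 1.5-fold, and 4.71% and 2.21% at 2-fold. The members then counted 16 higher and 1 lower at 1.5-fold. Log2 ratios were above 0 for 34 of the 48, against 47.4% of all genes, and 6 of the other 14 turned sign under at least 1 of 4 other scalings. The median log2 ratio was 0.24 over the 46 members that reached the minimum and 0.24 over all 48. The central 68% of all genes ran from -0.47 to 0.44, and 31 of the 48 members lay within 1.5-fold.

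**Figure D1:**
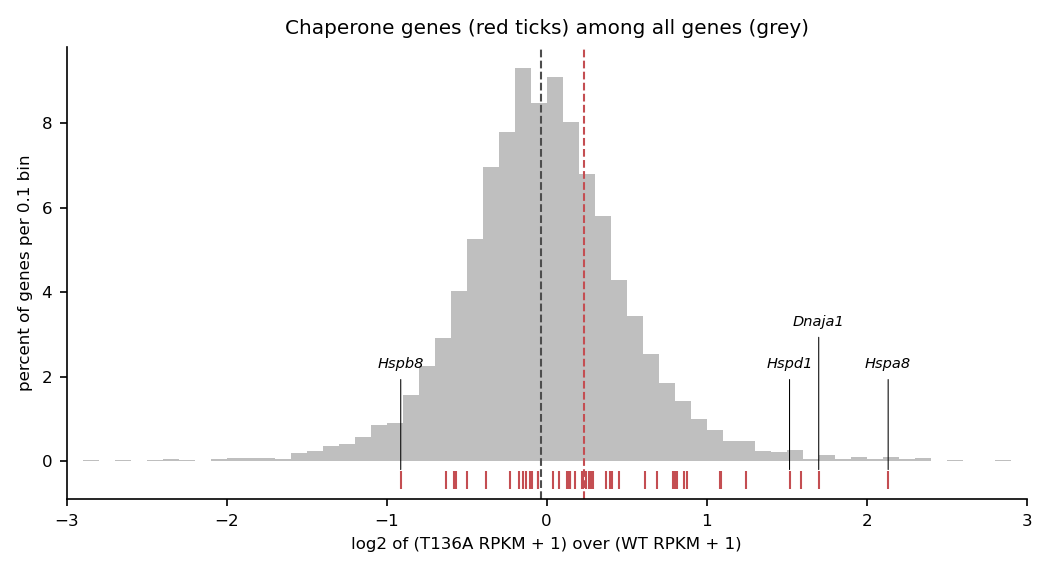
Distribution of the log2 ratio of T136A to WT (1 added to each RPKM) for the 12320 genes at or above 1 RPKM in a library (grey, percent of genes per bin; the few genes beyond 3 on either side are not drawn), with the 46 chaperone genes that reached the minimum as red ticks. Dashed lines are the medians, -0.03 for all genes and 0.24 for the chaperones; Hspa8 is the farthest tick on the right and Hspb8 on the left.

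The summed level of the 48 genes was 6279 RPKM in WT and 10013 RPKM in T136A, which is 1.65% and 2.61% of the RPKM of all genes. Cytosolic HSP90 gave the most of it, 2483 and 4127 RPKM. By role, the ratio of the sums was highest for the cytosolic HSP70 and HSP110 genes, 2.77, from 474 and 1313 RPKM. Of the 13 members with a mean of at least 100 RPKM, 6 were at least 1.5-fold higher and 0 at least 1.5-fold lower, against 10.3% and 8.14% of the 614 genes at that level. At 2-fold the counts were 3 and 0, against 2.28% and 3.58%. In the plot of levels by role, gaps of more than 2-fold between the libraries are seen among the HSP70, J-domain, small heat shock protein and mitochondrial chaperone genes.

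**Figure D2:**
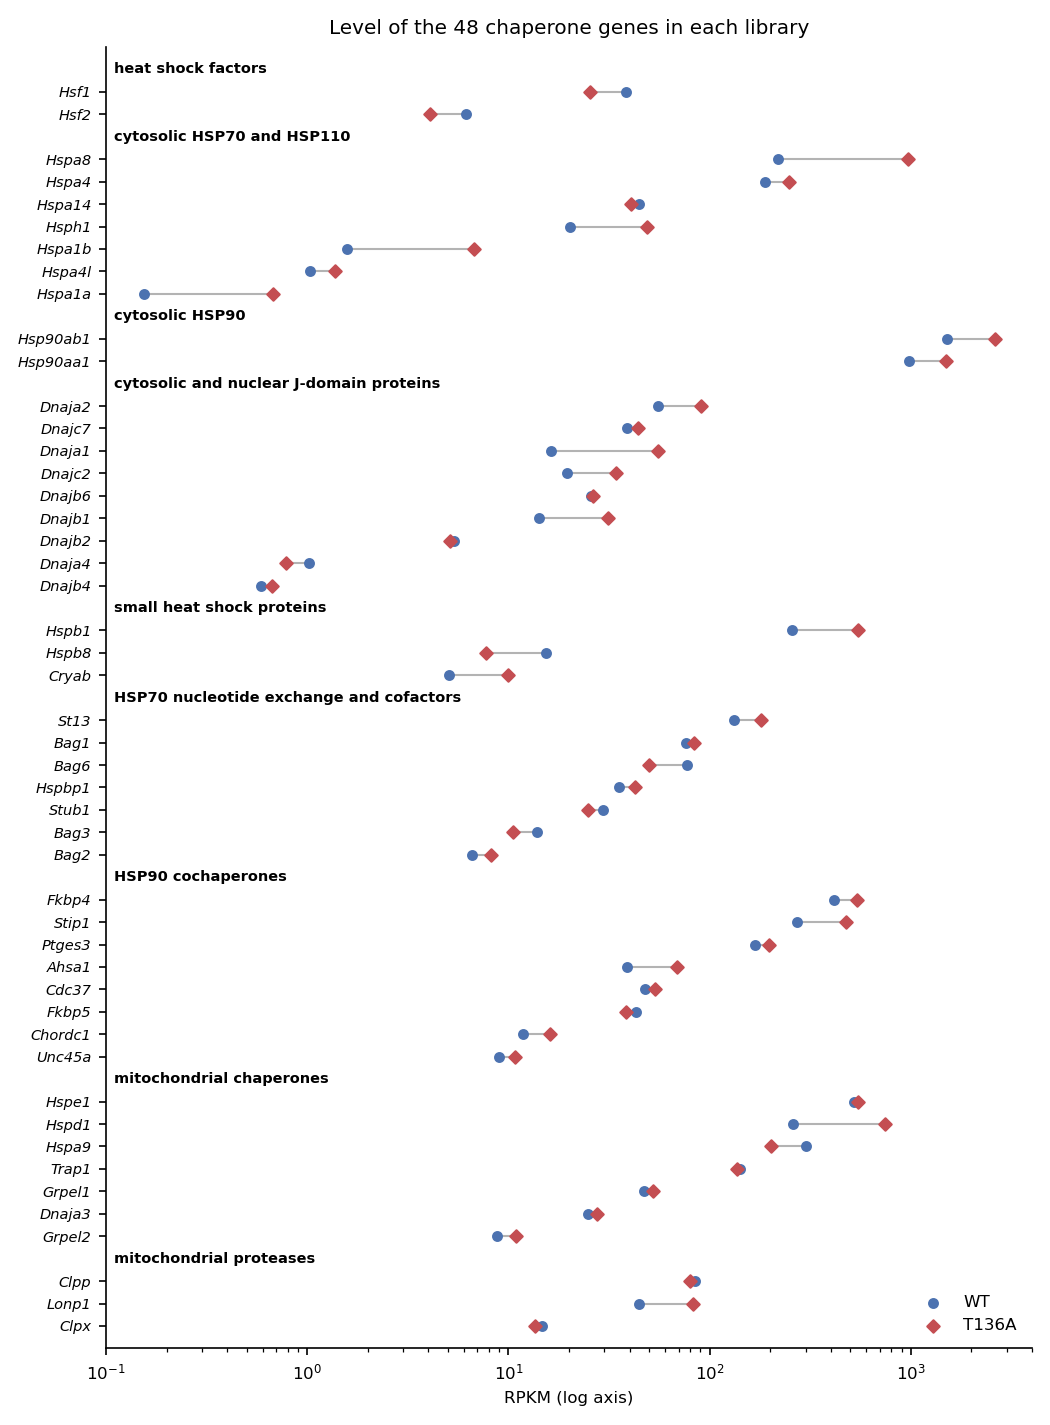
RPKM of each of the 48 genes in the WT library (blue circle) and the T136A library (red diamond) on a log axis, grouped by role and ordered by mean level. Hsp90ab1 is the most abundant member in both libraries, at 1505 and 2629 RPKM, while Hspa1a (0.154 and 0.678 RPKM) is the least abundant in WT and Dnajb4 (0.587 and 0.670 RPKM) in T136A.

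**Figure D3:**
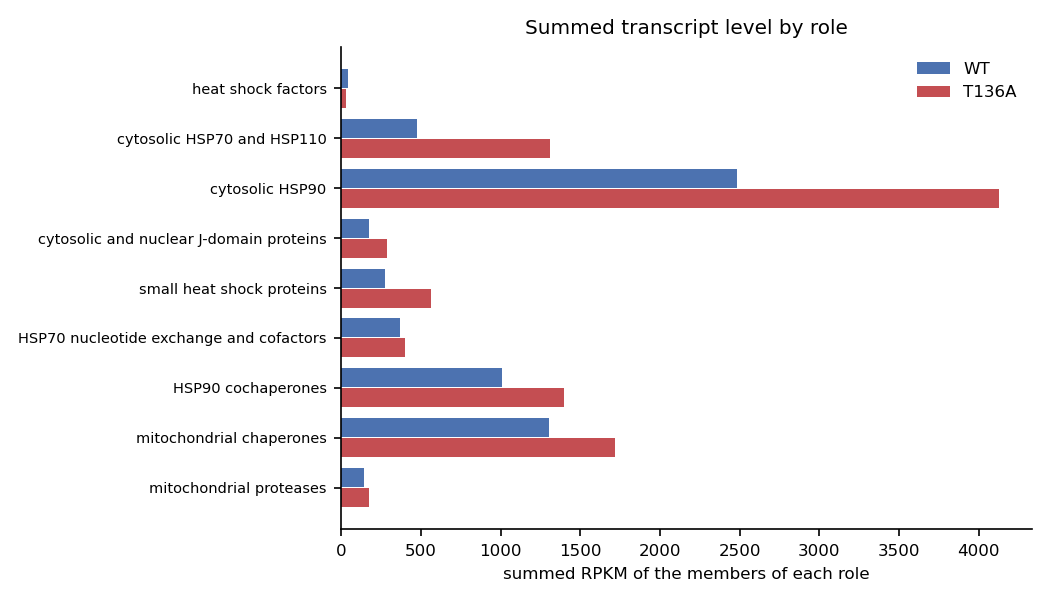
Summed RPKM of the members of each role in the WT (blue) and T136A (red) libraries, bars starting at 0. Only the heat shock factors have a lower sum in T136A, 44.5 against 29.6 RPKM.

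Both transcription factors of the response were lower in T136A, unlike most members. Hsf1, the main activator of heat shock genes, had 38.4 RPKM in WT against 25.6 in T136A, 1.5005-fold lower. Its relative Hsf2, which can pair with HSF1 and is active in development, was at 6.16 and 4.07 RPKM, 1.51-fold lower (95% counting interval 1.38 to 1.67). On the log2 scale with 1 added, their values of -0.57 and -0.50 fell just short of the 1.5-fold line. Hsbp1, which encodes a small protein that binds HSF1 trimers and is not among the 48 genes, was at 46.5 and 50.2 RPKM.

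Heat shock elements were then looked for in the promoter windows of these genes, as a description of their sequences. RefSeq windows (GRCm38.p6, 250 bases before and 50 after a start site) were at hand for 39 of the 48 genes, in 49 windows. The motif was 2 inverted units, GAANNTTC or TTCNNGAA, each of which reads the same on both strands, and its extension to 3 or more alternating units at a spacing of 5 bases. At least 2 units were present in 17 of 39 genes (43.6%), against 17.0% of all 27025 genes with a window. At least 3 units were present in 5 of 39 (12.8%), against 0.662% of all, and at least 4 in 3 of 39, against 8 genes in all. Hspd1 and Hspe1 share 1 run of 4 units and are counted as separate genes here. The counts of all genes include the members. Among the 8904 genes with a window that reached 1 RPKM in a library, 13.5% had at least 2 units and 0.550% at least 3. The windows numbered 49 for the 39 genes and 32851 for the 27025. The longest runs are printed here with shorter ones of Hspb1, Dnaja1, Hspa1a and Hspa1b, all higher in T136A. Runs of 2 units in other members are not printed, among them those of Hspb8, Bag3 and Stub1, which were lower in T136A. Capitals mark the units and the bases between them.

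The stretch between Hspd1 and Hspe1 carries 4 units and lies in the windows of both genes, which start on either side of it on opposite strands (chr1:55088053-55088082, plus strand, inside the first exon of a longer Hspd1 transcript in GENCODE M21).
Hspd1-Hspe1: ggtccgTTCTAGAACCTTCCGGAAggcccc
Chordc1, for an HSP90 cochaperone, has 5 units across its start site (chr9:18292260-18292288, plus strand, first exon).
Chordc1: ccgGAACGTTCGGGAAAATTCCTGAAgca
Hsph1 has 3 units just after its start (chr5:149636280-149636308, minus strand), and Dnajb6 has 3 before its RefSeq start (chr5:29735844-29735872, plus strand); both lie in first exons of GENCODE M21 transcripts.
Hsph1: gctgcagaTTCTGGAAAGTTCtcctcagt
Dnajb6: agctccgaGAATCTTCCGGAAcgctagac
Hspb1 has 2 separate pairs of units upstream (chr5:135887787-135887844, plus strand), and Dnaja1 has 1 pair (chr4:40722333-40722362, plus strand, inside the first exon of a GENCODE M21 transcript).
Hspb1: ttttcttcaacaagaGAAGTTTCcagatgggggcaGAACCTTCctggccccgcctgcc
Dnaja1: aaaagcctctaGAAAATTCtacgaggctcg
The duplicated genes Hspa1a (chr17:34972238-34972275) and Hspa1b (chr17:34959320-34959357), both on the minus strand, have the same letters here, and 247 of the 250 bases before their starts are identical.
Hspa1a: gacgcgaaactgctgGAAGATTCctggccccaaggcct
Hspa1b: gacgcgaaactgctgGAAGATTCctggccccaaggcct

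Log2 ratios of members with and without the motif overlapped. The 17 genes with at least 2 units had a median log2 ratio of 0.15, from -0.91 (Hspb8) to 1.70 (Dnaja1), and 5 of them (Dnaja1, Hspa1b, Hspd1, Hsph1 and Hspb1) were at least 1.5-fold higher, all 5 also at least 2-fold. The 22 genes with a window but no such run had a median of 0.20, from -0.63 (Bag6) to 1.08 (Dnajb1), and 5 of them were at least 1.5-fold higher, of which 1 (Dnajb1) was at least 2-fold higher. These differences were not tested. The 5 genes with 3 or more units had a median of 0.41. Among them, Hspd1 and Hsph1 were at least 2-fold higher, while Chordc1 had a log2 ratio of 0.41, Hspe1 of 0.07 and Dnajb6 of 0.04. A match of letters is a description and not a binding site, and its absence says only that the letters are not in that window. The promoters of Hspa8, Hsp90aa1, Hsp90ab1, Cryab, Dnajc2, Grpel2, Hsf1, Hspa9 and St13 were not analysed here. The composite motif of ATF4, TGATGNAA, searched on both strands, was in the window of 1 of 39 members (2.56%), that of Hspa14, against 4.51% of all genes and 2.56% of those that reached 1 RPKM.

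**Figure D4:**
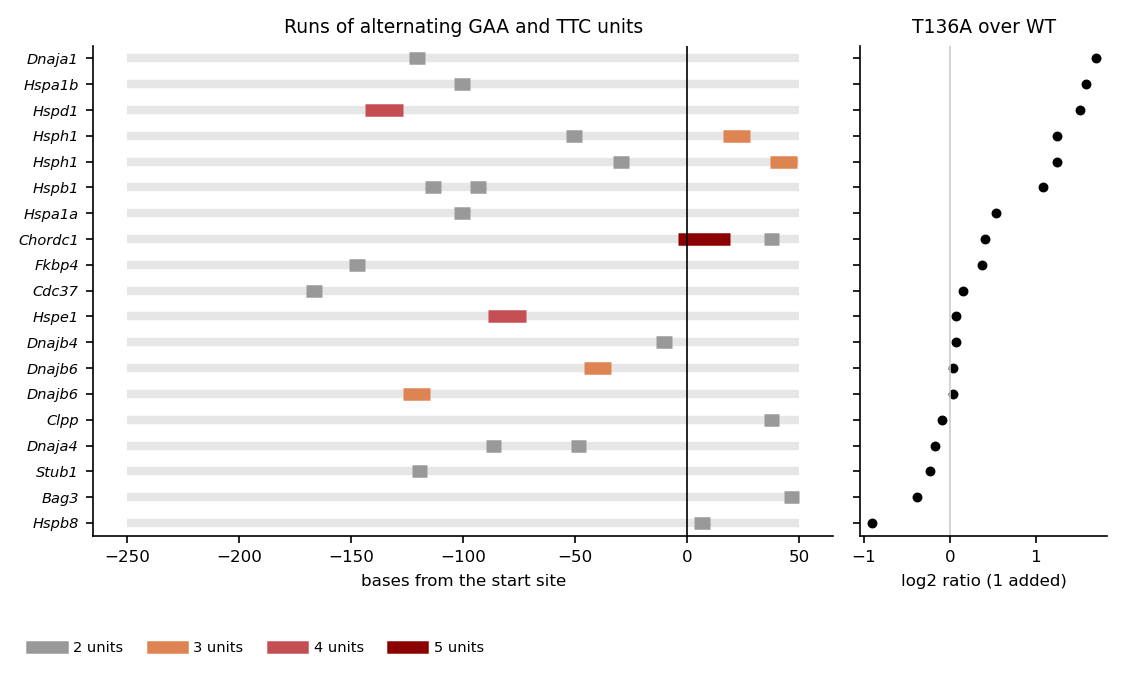
Left, position of runs of 2 or more alternating GAA and TTC units (coloured by number of units) in the promoter windows of chaperone genes that hold any, in bases from the start site; Dnajb6 and Hsph1 have 2 overlapping windows each. Right, the log2 ratio of T136A to WT (1 added to each RPKM) of the same gene; long runs are found at 1.52 (Hspd1) as well as at 0.07 (Hspe1) and 0.04 (Dnajb6).

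Among the HSP70 genes of the cytosol, Hspa8, Hspa1a and Hspa1b differed by more than 4-fold. Hspa8, the constitutive HSP70 that also drives clathrin uncoating, had 219.5 RPKM in WT against 967 in T136A, 4.41-fold higher (4.33 to 4.48). Of the 12320 genes, 35 had a higher log2 ratio. It moved from rank 246 to rank 45 among all genes by level.

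The strictly inducible HSP70 genes were low in both libraries but differed by a like factor. Hspa1b stood at 1.57 and 6.73 RPKM, from 77 and 347 reads, 4.29-fold higher (3.34 to 5.56). Hspa1a stood at 0.154 and 0.678 RPKM, from 8 and 37 reads, 4.40-fold higher (2.02 to 10.9). Their transcripts are 99.2% identical over 2201 aligned bases, so reads could be assigned to either, and their separate values are uncertain. Hspa8 was 140 times as high as Hspa1b in WT and 144 times in T136A, so the bulk of cytosolic HSP70 transcript came from Hspa8 in both.

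The HSP110 proteins, relatives of HSP70 that act as its nucleotide exchange factors, were all higher in T136A by unequal amounts. Hsph1 was at 20.1 RPKM in WT and 49.0 in T136A, 2.44-fold higher (2.33 to 2.55). Hspa4, the more abundant, was at 188 and 247 RPKM, 1.32-fold higher (1.29 to 1.34), and Hspa4l was at 1.03 and 1.38 RPKM, 1.34-fold higher (1.12 to 1.60). Hspa14, an HSP70 relative that works at the ribosome, was at 44.3 and 40.5 RPKM. Of 7 genes of this role, 3 were at least 1.5-fold higher and 0 at least 1.5-fold lower, against 10.4% and 11.3% of all genes. The same 3 were also at least 2-fold higher, against 3.13% of all genes.

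Both cytosolic HSP90 genes were higher in T136A. The constitutive Hsp90ab1 had 1505 RPKM in WT against 2629 in T136A, 1.75-fold higher (1.73 to 1.76), and took rank 9 among all genes by level in T136A, against rank 17 in WT. The inducible Hsp90aa1 stood at 978 and 1499 RPKM, 1.53-fold higher (1.52 to 1.55). The order of the isoforms was the same in both libraries, with Hsp90ab1 at 1.54 times Hsp90aa1 in WT and 1.75 times in T136A.

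Of 8 HSP90 cochaperones, 2 were at least 1.5-fold higher and 0 at least 1.5-fold lower, against 10.4% and 11.3% of all genes. Stip1, the bridge that passes clients from HSP70 to HSP90, was at 272 and 474 RPKM, 1.75-fold higher. Ahsa1, which speeds up the ATPase of HSP90, was at 38.7 and 68.7 RPKM, 1.78-fold higher (1.70 to 1.86). Fkbp4, a peptidyl-prolyl isomerase of steroid receptor complexes and the most abundant of the 8, was at 416 and 538 RPKM, 1.30-fold higher (1.27 to 1.32). Its counterpart Fkbp5, a gene known to respond to glucocorticoids, was at 42.8 and 38.6 RPKM. The kinase-loading factor Cdc37 (47.9 and 53.2 RPKM), the p23 protein gene Ptges3 (169 and 197 RPKM), Chordc1 (11.8 and 16.1 RPKM) and the myosin chaperone Unc45a (8.94 and 10.8 RPKM) had log2 ratios from 0.15 to 0.41.

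Among 9 cytosolic and nuclear J-domain proteins, 4 were at least 1.5-fold higher and 0 at least 1.5-fold lower. The shares of all genes were 10.4% and 11.3%. Dnaja1, a general partner of HSPA8, was at 16.3 RPKM in WT and 55.2 in T136A, 3.39-fold higher (3.24 to 3.54). Dnajb1, the J-domain protein that HSF1 induces and that feeds back on it, was at 14.2 and 31.2 RPKM, 2.19-fold higher (2.02 to 2.39). Dnaja2, close in build to Dnaja1 and more abundant than it in both libraries, was at 55.6 and 90.2 RPKM, 1.62-fold higher (1.55 to 1.70). Dnajc2, which acts on the ribosome, was at 19.5 and 34.4 RPKM, 1.77-fold higher (1.67 to 1.87).

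The other J-domain genes lay near equality. Dnajb6, which keeps polyglutamine proteins soluble, was at 25.6 and 26.4 RPKM, and the interval of its fold, 0.977 to 1.08, included 1. Dnajc7 was at 38.7 and 44.0 RPKM and the neuronal Dnajb2 at 5.34 and 5.12 RPKM. Dnaja4 (1.02 and 0.788 RPKM) was 1.29-fold lower (0.883 to 1.90) and Dnajb4 (0.587 and 0.670 RPKM) 1.14-fold higher (0.855 to 1.53). Both were low, and both intervals included 1. 

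The small heat shock proteins, which hold unfolded clients without ATP, differed in both directions. Hspb1 (HSP25 in the mouse) was at 256 RPKM in WT and 546 in T136A, 2.13-fold higher (2.06 to 2.21). Cryab, the alpha-B crystallin gene, was at 5.06 and 9.997 RPKM from 131 and 272 reads, 1.98-fold higher (1.60 to 2.45); its log2 ratio of 0.86 became 0.58, under the 1.5-fold line, with 5 added to each RPKM. Hspb8, which works with BAG3 to send clients to autophagy, was at 15.4 and 7.72 RPKM, 1.996-fold lower (1.72 to 2.32) and 0.91 lower on the log2 scale with 1 added. It had the lowest log2 ratio of all 48 members.

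Of 7 exchange factors and other cofactors of HSP70, 0 were at least 1.5-fold higher and 1 at least 1.5-fold lower. These counts are near the 10.4% and 11.3% of all genes. Bag6, which holds stray membrane proteins for degradation, was at 77.4 and 49.7 RPKM, 1.56-fold lower (1.51 to 1.61), and its log2 ratio of -0.63 became -0.48 with upper quartile scaling. Bag3, the partner of Hspb8, was at 13.9 and 10.5 RPKM, 1.33-fold lower (1.18 to 1.499). Bag1 was at 76.5 and 83.5 RPKM, Bag2 at 6.61 and 8.23, and the exchange factor Hspbp1 at 35.3 and 42.7. St13, the Hip protein gene that steadies the HSP70 and client complex, was at 132 and 180.02 RPKM. Stub1, the ubiquitin ligase CHIP that bridges chaperones to the proteasome, was at 29.4 and 24.9 RPKM.

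Mitochondrial members had a lower median than those outside, 0.11 for 10 genes against 0.27 for 38, and 8 of the 10 were within 1.5-fold, near the 78.3% of all genes. Hspd1, the chamber protein HSP60, was at 258 RPKM in WT and 742 in T136A, 2.87-fold higher (2.81 to 2.93). Hspe1, its lid HSP10, was at 519.96 and 548 RPKM, 1.05-fold higher (1.03 to 1.08). Lonp1, the ATP-dependent protease of the matrix, was at 44.6 and 82.8 RPKM, 1.86-fold higher. Hspa9, the mitochondrial HSP70, was at 302 and 202 RPKM, 1.49-fold lower in T136A, just under the line. Hspa9 was thus above Hspa8 in WT, where the Hspa8 level was 0.727 of it, and below in T136A, where Hspa8 was 4.79 times as high.

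The remaining mitochondrial genes had log2 ratios from -0.11 to 0.29. Those of Trap1 (142 and 137 RPKM), the mitochondrial HSP90, of Clpp (85.0 and 79.7 RPKM) and of its unfolding partner Clpx (14.7 and 13.6 RPKM) lay close to 0. Grpel1 (47.0 and 52.0 RPKM) and Grpel2 (8.76 and 10.95 RPKM), the exchange factors of HSPA9, and its J-domain partner Dnaja3 (24.9 and 27.5 RPKM) lay slightly above it. Together with Hspa14, Dnajb2 and Fkbp5, the genes Trap1, Clpp and Clpx made up the 6 members whose log2 ratio turned sign under at least 1 of 4 other scalings.

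**Figure D5:**
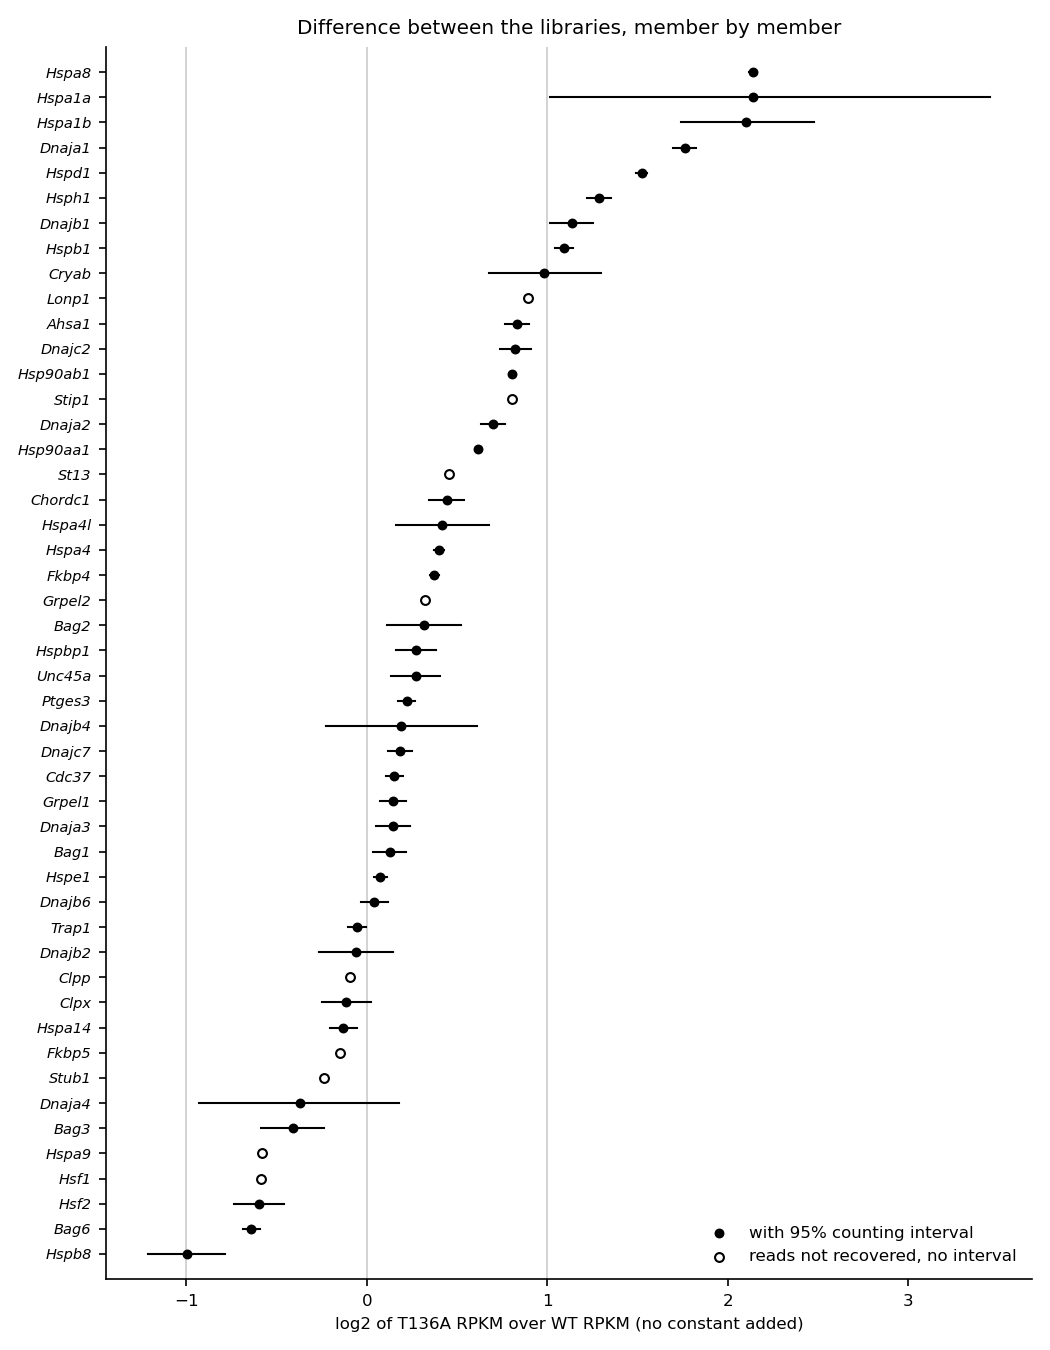
Log2 of T136A RPKM over WT RPKM, with no constant added, for the 48 genes in order; lines are 95% counting intervals from recovered reads, and open circles are the 9 genes without one. Hspa8, Hspa1a and Hspa1b stand together at the top, and Hspb8, Bag6, Hsf2, Hsf1 and Hspa9 at the bottom.

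Counting error was small for most members. Whole reads were recovered in both libraries for 39 of the 48 genes, and the 95% interval of the fold excluded 1 for 34 of them, 28 higher and 6 lower. The same held for 68.6% of all genes with recovered reads, so an interval that excludes 1 is common here. The 9 genes with no interval were Hsf1, St13, Stub1, Stip1, Fkbp5, Hspa9, Grpel2, Lonp1 and Clpp. All 9 lie on chromosomes 15, 17, 18 or 19, although other members on chromosome 17, such as Bag6, have an interval. Whether the gene models used for their lengths differ from those of the authors was not tested. The intervals cover counting error only and say nothing of variation between cultures.

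Neighbouring genes differed in their ratios. Hspd1 and Hspe1 are read in opposite directions from start sites with 215 bases between them in RefSeq, yet the level of Hspd1 was 0.497 of that of Hspe1 in WT and 1.35 times that of Hspe1 in T136A. Cryab and Hspb2, a muscle-rich small heat shock gene read away from it, start 1029 bases apart in GENCODE M21. Cryab was higher in T136A, while Hspb2 was at 2.26 and 1.63 RPKM from 33 and 25 reads. Hspa1l, read away from Hspa1a and known from testis, had 4 reads in WT and 1 in T136A. Without a stated use of strand in counting, reads from overlapping genes cannot be told apart: Hspd1 overlaps Hspe1 in GENCODE M21, Cryab overlaps Hspb2, and Dnaja1 overlaps Smu1, which was at 71.4 and 77.5 RPKM.

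Processed pseudogenes that nearly match a member can take or lend reads. Copies with at least 95% identity over at least 80% of their length had a value for 8 members. The copies with the most reads had ratios like those of their parent genes: Gm8355, a copy of Hspa8, was at 3.21 and 15.6 RPKM, Hspd1-ps3 at 7.53 and 22.8, Gm15542 of Dnaja1 at 5.07 and 19.3, and Gm12346 of Hsp90aa1 at 26.3 and 40.2. Ptges3-ps, identical to Ptges3 over its whole length, reached 120.3 and 135.6 RPKM, beside 169 and 197 for the gene itself. Adding the copies to their parents left the log2 ratio of Hspa8 at 2.14, of Hspd1 at 1.52 and of Hsp90aa1 at 0.62, and 15 members at least 1.5-fold higher. The log2 ratio of Grpel2 went from 0.29 to 0.11, since its copy Gm5587 was lower in T136A, at 1.95 and 0.726 RPKM. That alternative was chosen after the values were seen.

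Other genes of the folding network outside the 48 were taken from lists chosen by function. Of 28 further HSP70 and HSP90 cofactors, 8 were at least 1.5-fold higher, 1 at least 1.5-fold lower and 19 in between, against the 10.4% and 11.3% of all genes. Hsp90b1, counted among the 8 though it is itself the HSP90 of the endoplasmic reticulum and not a cofactor, was at 29.7 and 73.3 RPKM. Nudc, an HSP90 partner in dynein regulation, was at 156 and 360 RPKM. Tomm34, which binds HSP70 and HSP90 in mitochondrial import, was at 15.9 and 34.2 RPKM. Among the lowest were Fnip1 (5.98 and 3.32 RPKM) and Ppp5c (68.6 and 51.3). Hspa5, the endoplasmic reticulum HSP70 known as BiP, was at 41.6 and 157 RPKM, 3.78-fold higher (3.63 to 3.93).

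Of 30 further J-domain genes, 1 was at least 1.5-fold higher and 5 at least 1.5-fold lower, against 10.4% and 11.3% of all genes, with a median of -0.20 over the 27 that reached 1 RPKM. Dnajc22 (7.66 and 2.82 RPKM), Dnajc5 of synaptic vesicles (20.7 and 10.95) and Dnajb14 (1.03 and 0.231) were lowest, and Dnajb13 (1.63 and 3.40), Dnajc9 (42.1 and 57.8) and Dnajc14 (4.75 and 6.19) highest. Of 8 further small heat shock genes, 4 reached 1 RPKM, and Hspb6 was at 10.7 and 1.797 RPKM, 5.93-fold lower (4.64 to 7.67). Of 9 further heat shock factor and HSP70 genes, 5 reached 1 RPKM, with Hspa2 of the germ line (2.204 and 3.41 RPKM) highest and Hsf5 (1.17 and 0.235) lowest.

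In the mitochondrial quality control list, 4 of 17 genes were at least 1.5-fold higher and 1 at least 1.5-fold lower, against 10.4% and 11.3% of all genes. The scaffold prohibitin gene Phb was at 116 and 275 RPKM and the permeability pore regulator Ppif at 6.47 and 13.97, while the partner of prohibitin, Phb2, was at 111 and 120. Lonp2, a protease of peroxisomes, was at 6.86 and 12.3 RPKM. Atf5, a transcription factor of the mitochondrial unfolded protein response, was at 30.2 and 8.15 RPKM, 3.70-fold lower (3.25 to 4.22). The next lowest were the membrane proteases Spg7 (8.52 and 5.86 RPKM) and Afg3l1 (34.3 and 25.3 RPKM).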

How the data were processed

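RNA-seq libraries of E14.1 cells with WT or T136A AHCY were analysed, 1 per genotype. Each file holds 1 value per Ensembl gene, deposited by the authors and read here as RPKM; no header or label names the unit, which was worked out from the numbers. Multiplied by union exon length (GENCODE M21, GRCm38) and 1 constant per library, 89.9% (WT) and 90.0% (T136A) of positive values were whole within 0.01. The submitters' processing notes name CASAVA 1.8 and mm9 without a role; which aligner, counter or strand rule was used is not given in the sources used here.

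Symbols matched 25696 of 25749 identifiers. Libraries were compared by the log2 ratio of T136A to WT, with 1 added to each RPKM, for genes at 1 RPKM or more in at least 1 library; folds are plain RPKM ratios. Intervals are exact conditional binomial (Clopper-Pearson, 95%), from recovered reads (scipy 1.17.1), and reads without molecular identifiers are not independent molecules. Copies were found with blastn 2.17.0. Protein features were not analysed here. The steps were tested on simulated data. The members, roles and lists were chosen with earlier results of these data known. Named genes were all members and, of each other list, up to 3 at either end plus Atf4, Ddit3, Hspa5 and Ubb, with some genes that the rule names not reported here; Hsbp1, Hspb2, Hspa1l, Smu1, Phb2, Mt1, the copies and the cell type markers were named after their values were seen.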

Additional observations from a re-analysis of the deposited data

How the results depend on the processing

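The list was run under 13 alternatives, of which 12 were planned and 1 (copies added to their parent genes) was chosen after seeing the data. Of the resulting 65 values of the median and the counts, 64 stayed within their limit: 1.5 times for a count, and for the median its 95% order-statistic interval across members, 0.07 to 0.45. That interval treats a chosen list of genes as independent draws and holds no variation between cultures. It is wide, so staying inside it is a weak check of the median. The counts were weakly checked too. Dropping the minimum, summing identifiers that share a symbol, or counting Hspa1a and Hspa1b as 1 gene changed none of the values. The number at least 2-fold lower was 0 in every setting. The exception was the number of members at least 1.5-fold lower, which was 1 with upper quartile scaling in place of 2, since Bag6 no longer passed. The median ran from 0.18 with 5 added to 0.38 with upper quartile scaling, the members at least 1.5-fold higher from 13 to 16, and those at least 2-fold higher from 5 to 9. Of 336 values of single members, 0 of those past 1.5-fold turned direction. Across the scalings, both added constants and the added copies, 6 members crossed the 1.5-fold line: Hsf2, Hspa1a, Cryab, Bag6, St13 and Hspa9. The causes were not tested. No paired analysis was possible because each genotype had 1 library, and for the same reason no replicate could be left out. Low levels widen the intervals of Hspa1a, Hspa4l, Dnaja4 and Dnajb4, at or under 1.38 RPKM in both libraries. Those of Dnaja4 and Dnajb4 included 1.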

Other observations

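Other lists of the wider stress network were measured beside the chaperones. Prefoldin and nascent chain chaperones, which meet proteins as they leave the ribosome, were within 1.5-fold for 9 of 10 genes, against 78.3% of all genes. Naca, of the nascent chain complex, was the exception at 58.1 and 93.7 RPKM, followed by its partner Btf3 (161 and 231 RPKM) and Pfdn1 (105 and 146 RPKM); Pdrg1 (21.8 and 14.4), Uxt (4.39 and 3.48) and Pfdn4 (23.2 and 19.4) were lowest. The list's median log2 ratio was 0.33, against -0.03 for all genes.

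Of 13 other stress-inducible genes, 6 were at least 1.5-fold lower in T136A and 1, Hspa5, at least 1.5-fold higher, against 11.3% and 10.4% of all genes. Genes of the ATF4 pathway made up 5 of the 6, among them Atf4 (306 and 105 RPKM), Ddit3 (30.3 and 7.39 RPKM), Chac1 (104 and 3.92 RPKM) and Trib3 (97.3 and 17.0 RPKM). The sixth was the metal-responsive Mt1, at 212 and 121 RPKM. The ubiquitin gene Ubb (638 and 774 RPKM), which heat shock also induces, and Vcp (69.8 and 86.5 RPKM), for a segregase that unfolds ubiquitin-marked proteins, were within 1.5-fold.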
